A study of Mus musculus with 15 samples.

Results

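Genes of the primary cilium were followed in whole eyes of mouse models of Huntington's disease (HD). A fixed list named 36 genes in 3 classes: 14 intraflagellar transport genes (Ift), 8 Bardet-Biedl syndrome genes (Bbs) and 14 genes of the ciliary transition zone. Of these, 34 were measured by a probe set with a single gene symbol, out of 22180 such genes on the arrays. Tctn1 and Tmem216 of the transition zone were not analysed here. Eyes of R6/1 mice were taken at 6 months of age and eyes of R6/2 mice at 9 weeks, each with wild type (WT) controls of that age, all on the C57BL/6J strain. R6/1 and R6/2 mice carry a transgene for a mutated exon 1 fragment of human huntingtin, with 131 ± 3.1 (SD) CAG repeats in R6/1 and 162 ± 2.8 (SD) in R6/2, so they model the fragment and not full-length huntingtin. The controls were littermates without the transgene. RNA was read on 15 Affymetrix Mouse Gene 2.1 ST arrays, and values are on the log2 scale throughout. The methods state that isolated RNA was pooled into the samples, and the labels do not tie arrays to animals, so each p measures the spread between these samples only. The number of arrays limits the precision.

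The cilium is a microtubule-based extension of the cell surface, and the light-sensing outer segment of rods and cones is a modified cilium. Intraflagellar transport moves cargo along it on protein trains: complex B travels outward with kinesin, and complex A serves the return with dynein. The BBSome, built from several Bbs proteins, is a cargo adaptor that removes membrane proteins from the cilium. The transition zone at its base is a gate of membrane and scaffold proteins that controls what enters, and inherited loss of genes in all 3 classes causes retinal degeneration in humans.

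The arrays at 6 months carried a conflict of labels. The labels give 4 WT and 3 R6/1 arrays, whereas the methods give 3 and 4. Opn1sw, the short-wave cone opsin, read 7.49, 7.84 and 7.46 in WT replicates 1 to 3 but 3.48 in the array labelled WT replicate 4, beside 2.91, 2.51 and 3.01 in R6/1. Tmem26 read 3.16, 3.01 and 3.20 in WT replicates 1 to 3, 4.96 in the array labelled WT replicate 4, and 5.12, 5.53 and 5.12 in R6/1. In both genes the array labelled WT replicate 4 lay just outside the R6/1 arrays and far from the other WT arrays, so it went against its label. The main results at 6 months are therefore given as labelled, with that array left out, and with it counted as R6/1. The difference between the WT groups has the same size under the last 2 of these, since both average WT replicates 1 to 3. All groups share a single fit, so this choice also moves the error used at 9 weeks. Genes are named as called where limma gave a p under 0.05 and, after Benjamini-Hochberg adjustment over the tested genes, an adjusted p under 0.20. Tested genes were the 50% with the widest interquartile range over the arrays.

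Mouse Htt, the endogenous huntingtin gene, ranged from 5.76 to 6.44 over all arrays and is no check of the human transgene. Array medians were 2.78 to 2.95. Values spread least at 6 months in the third WT array (interquartile range 2.17) and the third R6/1 array (2.26), then in the third WT array at 9 weeks (2.43), beside 2.47 to 2.61 for the rest. The eyeball label was borne out by its markers, since the mean of 13 rod genes was 7.89 to 8.64 and that of 11 lens genes 7.92 to 8.91 over the arrays. Markers of other tissue were present too, with means of 5.12 to 7.76 for 14 skeletal muscle genes and 3.85 to 6.76 for 8 gland and adipocyte genes. In such bulk samples, fewer cells of a type and less RNA per cell cannot be told apart.

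Many ciliary genes carry an X-box, the motif bound by RFX transcription factors, near their start site. RefSeq promoter windows (build GRCm38.p6, 250 bases before to 50 after a start site) were found for 32 of the 36 listed genes, and none was found for Ift80, Ift81, Ift122 and Tmem67. The X-box letters searched, GTNNCC followed after NNN by GNNAC, on both strands, were present in 13 of the 32 genes (40.6%), against 1422 of 27025 genes with a window (5.26%). The half-site GTTGCC, which can lie inside an X-box, was present in 17 of 32 (53.1%), against 14.1% of genes. This spelling was kept after several had been tried, genes with several start sites had more windows, and a match is a description of letters and not of a bound site. Tmem237 and Ift22, the genes with the lowest p in R6/2 eyes, both held a match. The 250 bases before their start sites are shown with the match in capitals, for Tmem237 at chr1:59120097-59120346 on the minus strand (the start site of the 3 annotated that has the match) and for Ift22 at chr5:136907900-136908149 on the plus strand.
Tmem237: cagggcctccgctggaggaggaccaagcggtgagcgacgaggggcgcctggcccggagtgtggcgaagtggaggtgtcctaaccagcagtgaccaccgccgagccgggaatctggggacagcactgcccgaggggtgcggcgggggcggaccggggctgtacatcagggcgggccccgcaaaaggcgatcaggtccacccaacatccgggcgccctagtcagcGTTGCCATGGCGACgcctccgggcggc
Ift22: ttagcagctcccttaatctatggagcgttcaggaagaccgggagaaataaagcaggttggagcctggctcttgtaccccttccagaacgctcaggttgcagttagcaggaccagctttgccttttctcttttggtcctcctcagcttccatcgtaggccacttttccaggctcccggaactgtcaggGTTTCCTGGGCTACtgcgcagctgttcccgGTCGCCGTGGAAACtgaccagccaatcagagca
The first base of the Tmem237 match was at position -27 from the start site, and those of the Ift22 matches at -63 and -33.

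Bbs7, Bbs4, Ift57 and Ahi1, which were called between the WT groups as labelled, held matches as well, shown here with the 8 bases on each side, read along the gene.
Bbs7, chr3:36613489-36613518, minus strand: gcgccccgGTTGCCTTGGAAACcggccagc
Bbs4, chr9:59353464-59353493, minus strand: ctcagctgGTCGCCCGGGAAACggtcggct
Ift57, chr16:49699199-49699228, plus strand: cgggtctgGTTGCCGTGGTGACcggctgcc
Ahi1, chr10:20952560-20952589, plus strand: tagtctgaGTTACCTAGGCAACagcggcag
The Bbs7 and Ift57 matches lie before the start site, those of Bbs4 and Ahi1 after it. The other genes with a match were Bbs1, Tctn1, Tctn2, Tmem216, Mks1, Nphp4 and B9d2, and a second match of Ift57 is not shown. Of the other genes called between the WT groups as labelled, Tmem237 held the match shown above. Cep290, Bbs9, Ift74 and Ift88 had a window without a match, and Ift80 and Tmem67 had no window. Whether a match goes with a difference was not tested.

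In R6/2 eyes at 9 weeks, Tmem237 and Ift22 had the largest differences of the 34 genes, both higher than in WT. Tmem237 encodes a membrane protein of the transition zone that is mutated in Joubert syndrome. It read 5.39, 5.21, 5.30 and 4.79 in the WT arrays and 5.82, 5.88, 5.75 and 5.82 in the R6/2 arrays. All 4 R6/2 arrays lay above all 4 WT arrays, and WT replicate 4 was the lowest. The log2 difference was 0.64 (standard error 0.17), or 1.56-fold, with limma adjusted p = 0.295 as labelled, which missed the threshold of 0.20. Without the array labelled WT replicate 4, the adjusted p was 0.134, and with it counted as R6/1 it was 0.103, so Tmem237 was called higher in both. The blocked fit on replicate numbers gave an adjusted p of 0.121, but the labels name no pairing by replicate number. Same-numbered arrays did not stand out at 9 weeks, and that fit called 2.07% of all tested genes higher.

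Ift22 encodes a small GTPase of IFT complex B. It read 5.80, 5.84, 5.92 and 5.58 in WT and 6.71, 6.52, 6.51 and 6.26 in R6/2. The groups did not overlap. The log2 difference was 0.71 (standard error 0.19), or 1.64-fold, with limma adjusted p = 0.295 as labelled. It was called with the labelled array left out (adjusted p = 0.196) or counted as R6/1 (adjusted p = 0.151), and with the replicate block (adjusted p = 0.0667), a fit limited as given for Tmem237. As labelled, Tmem237 and Ift22 were both called without WT replicate 3 at 6 months (limma adjusted p = 0.169 and 0.0909), without WT replicate 1 at 9 weeks (0.174 and 0.183) and without WT replicate 3 at 9 weeks (0.0765 and 0.072). Of all tested genes, 0.343%, 0.667% and 2.25% were called higher in these fits, in that order, beside 0.0721% with all arrays. Neither Tmem237 nor Ift22 was called without WT replicate 4 at 9 weeks, where the difference was 0.52 for Tmem237 (adjusted p = 0.702) and 0.64 for Ift22 (adjusted p = 0.623), or without WT replicate 2 at 9 weeks (adjusted p = 0.611 and 0.576). Leaving out any single R6/2 array also gave no call, with adjusted p from 0.517 to 0.693 for Tmem237 and from 0.429 to 0.693 for Ift22.

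**Figure D1:**
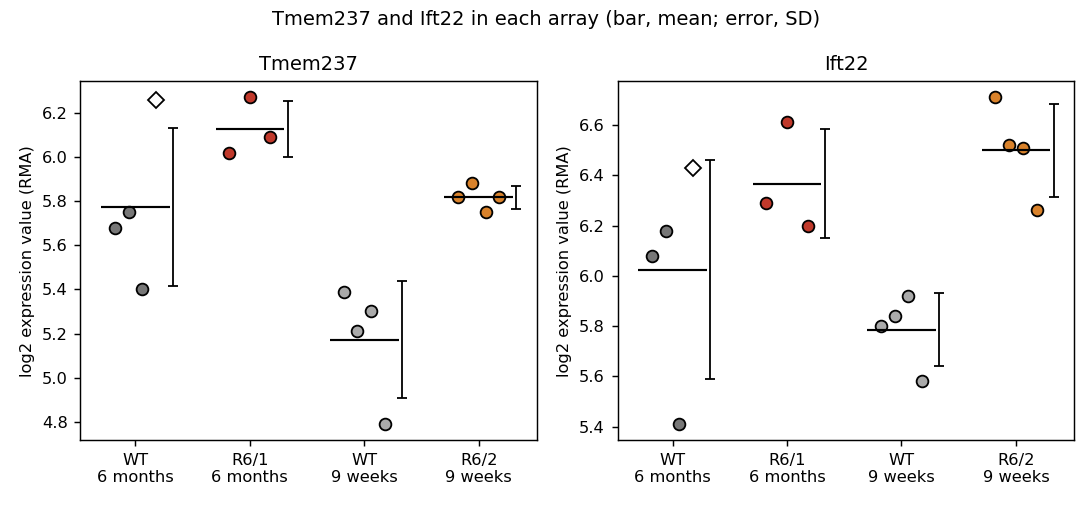
Log2 expression values of Tmem237 (left) and Ift22 (right) in each of the 15 arrays, by group. Points are arrays, horizontal bars group means as labelled, error bars SD, and an open diamond marks the WT replicate 4 label at 6 months. In both genes the R6/2 points lie above all WT points at 9 weeks, and the diamond lies among the R6/1 points.

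Of the 34 genes, 22 passed the variance filter and were tested (8 Ift, 8 Bbs and 6 of the transition zone). As labelled, 0 of 22 were called higher or lower in R6/2, beside 0.0721% of all tested genes called higher and 0.0992% called lower. At an unadjusted p under 0.05 there were 4 (Ift22, Tmem237, Bbs1 and Ahi1), against 1114 of 11090 genes (10.0%). With the labelled array left out or counted as R6/1, the 2 genes called were Tmem237 and Ift22, both higher, beside 0.189% and 0.243% of tested genes called higher. None was called lower, beside 0.28% and 0.316%. The R6/2 and WT arrays did not overlap in 5 of 34 genes, all higher in R6/2 (Ift22, Ift74, Tmem237, Tmem67 and B9d1), beside 3.54% of all genes. None was lower without overlap, beside 1.69%. B9d1, a B9 protein of the transition zone, stood at 4.59 to 4.63 in WT and 4.68 to 4.85 in R6/2.

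Ift74, which with Ift81 binds tubulin cargo in complex B, read 4.35, 4.23, 4.24 and 3.9 in WT and 4.43, 4.61, 4.39 and 4.49 in R6/2. The groups lay close together without overlap, and the difference of 0.30 (standard error 0.14) had limma adjusted p = 0.498. Tmem67, or meckelin, a receptor-like protein of the transition zone, read 5.32, 5.25, 5.44 and 4.58 in WT and 5.56, 5.61, 5.48 and 5.47 in R6/2. WT replicate 4 stood far below the other WT arrays. The difference was 0.38 (standard error 0.21, limma adjusted p = 0.571). A further probe set of Tmem67, at means of 1.92 to 2.15, was not used.

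Bbs1, a BBSome subunit, read 4.97, 4.81, 4.85 and 4.5 in WT and 4.97, 5.16, 5.33 and 5.16 in R6/2. The groups touched, at a difference of 0.37 (standard error 0.17, limma adjusted p = 0.461). Ahi1, the transition zone protein jouberin, read 6.44, 6.38, 6.80 and 6.06 in WT and 6.62, 6.99, 6.89 and 6.82 in R6/2. WT replicate 3 lay within the R6/2 range. The difference was 0.41 (standard error 0.19, limma adjusted p = 0.495). Bbs4, also of the BBSome, read 6.21, 5.86, 6.12 and 5.45 in WT and 6.15, 6.22, 6.17 and 6.35 in R6/2, a difference of 0.31 (standard error 0.17, limma adjusted p = 0.576) in which WT replicate 1 overlapped R6/2.

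The remaining genes spanned log2 differences of -0.18 to 0.35 in R6/2. The lowest was Bbs12, a chaperonin-like protein that helps to assemble the BBSome, and the highest was Tctn2, a tectonic of the transition zone (0.35, standard error 0.18, limma adjusted p = 0.549). In all, 30 of 34 genes had a difference above 0, against 54.7% of all genes, and the exceptions were Ift27, Bbs10, Bbs12 and Mks1. Class medians were 0.08 for Ift, 0.11 for Bbs and 0.11 for the transition zone, beside 0.02 for all genes. WT replicate 4 at 9 weeks was the lowest of the 15 arrays for 14 of the 34 genes. That array also had the lowest means at 9 weeks of the rod list (7.97, others 8.10 to 8.63), the pigment epithelium list (5.93, others 6.02 to 6.52) and the inner retina list (5.01, others 5.18 to 5.46), and the highest mean of the gland and adipocyte list (6.76, others 3.85 to 6.07). The muscle list was 6.90 to 7.44 in WT and 5.12 to 6.44 in R6/2, and the cone list 4.67 to 5.32 in WT and 3.73 to 4.0 in R6/2. The part of these markers in the differences of the ciliary genes was not tested.

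**Figure D2:**
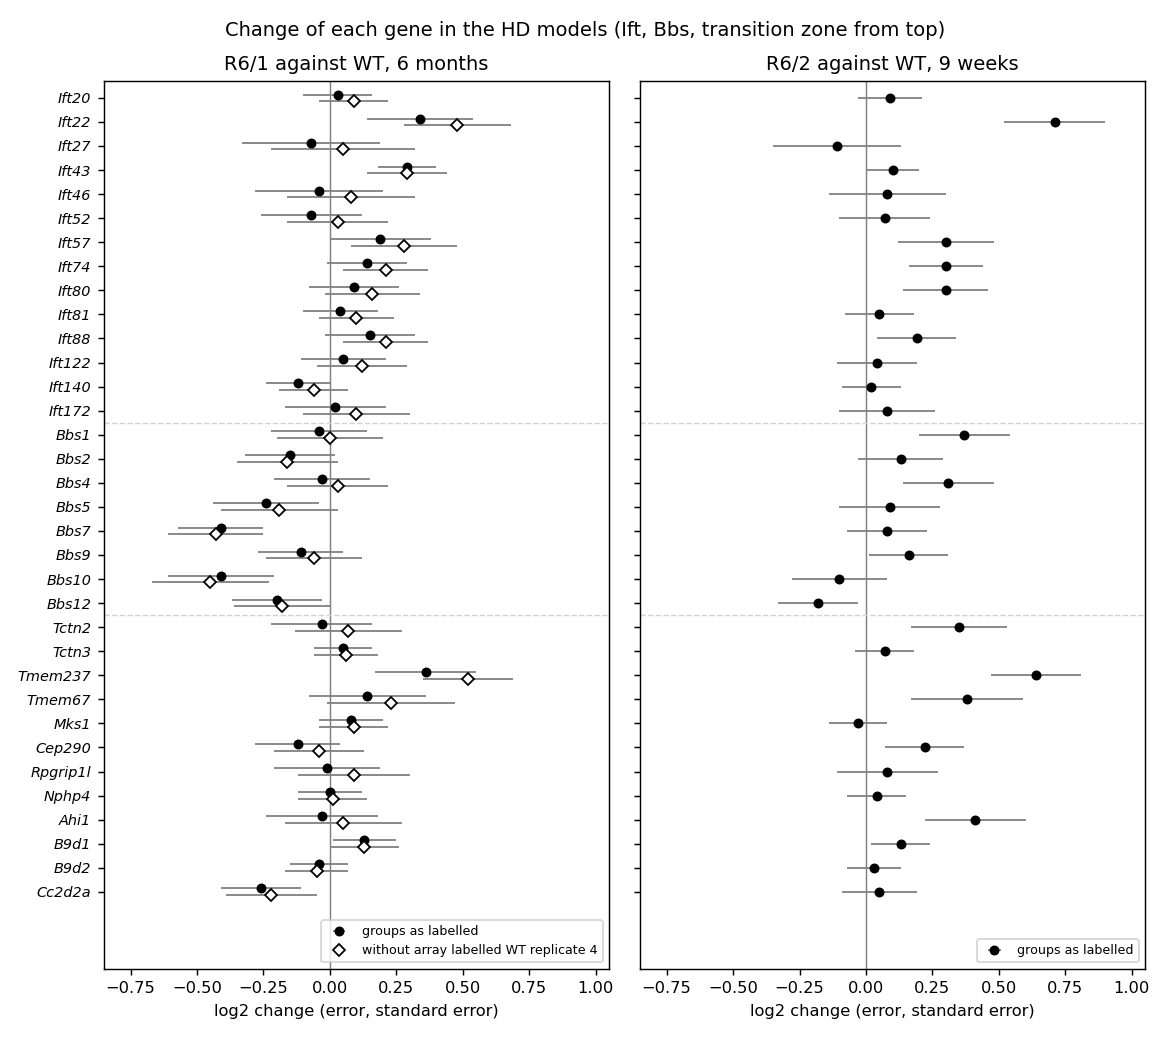
Log2 difference of each of the 34 genes in R6/1 against WT at 6 months (left) and in R6/2 against WT at 9 weeks (right), with standard errors from the limma fit. Filled circles are the groups as labelled and open diamonds leave out the WT replicate 4 label. Tmem237 and Ift22 lie furthest right in both panels, and Bbs7 and Bbs10 furthest left at 6 months.

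In R6/1 eyes at 6 months, 0 of 22 tested genes were called higher or lower under each of the 3 groupings. All tested genes gave 0.0361% called higher and 0.018% called lower as labelled, 0.0992% and 0.361% with the labelled array left out, and 0.0902% and 0.388% with it counted as R6/1. An unadjusted p under 0.05 was found for 1 of 22 as labelled (Bbs7), against 345 of 11090 genes (3.11%), for 3 with the array left out (Tmem237, Bbs7 and Ift22), against 443 genes (3.99%), and for 2 with it counted as R6/1 (Tmem237 and Ift22), against 518 genes (4.67%).

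Tmem237 read 5.68, 5.75 and 5.40 in WT replicates 1 to 3, 6.26 in the array labelled WT replicate 4, and 6.02, 6.27 and 6.09 in R6/1. The first 3 lay below all R6/1 arrays, and the array labelled WT replicate 4 lay within the R6/1 range. The log2 difference was 0.36 as labelled (standard error 0.19, limma adjusted p = 1.0), 0.52 with that array left out (standard error 0.17, adjusted p = 0.690) and 0.55 with it counted as R6/1 (standard error 0.15, adjusted p = 0.316).

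Ift22 read 6.08, 6.18 and 5.41 in WT replicates 1 to 3, 6.43 in the array labelled WT replicate 4, and 6.29, 6.61 and 6.20 in R6/1. WT replicate 3 was far below the other arrays, and WT replicate 2 lay just under the lowest R6/1 array. The difference was 0.34 as labelled (standard error 0.20, limma adjusted p = 1.0), 0.48 with the labelled array left out (adjusted p = 1.0) and 0.49 with it counted as R6/1 (adjusted p = 0.744).

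Bbs7, a BBSome subunit, read lower in R6/1 as labelled but was not called, and its separation depended on the array labelled WT replicate 4. It read 7.02, 6.76 and 6.51 in WT replicates 1 to 3, 6.70 in the array labelled WT replicate 4, and 6.41, 6.43 and 6.17 in R6/1. The groups did not overlap as labelled or without that array, and did overlap with it counted as R6/1. The log2 difference was -0.41 as labelled (standard error 0.16, or 1.33-fold lower, limma adjusted p = 1.0), -0.43 with the array left out and -0.34 with it counted as R6/1. Bbs10, a chaperonin-like protein of BBSome assembly, read 3.41, 4.04 and 3.54 in WT replicates 1 to 3, 3.51 in the array labelled WT replicate 4, and 2.98, 3.20 and 3.47 in R6/1. R6/1 replicate 3 overlapped WT. The difference was -0.41 (standard error 0.20, limma adjusted p = 1.0), -0.45 with the array left out and -0.37 with it counted as R6/1.

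Ift43, a subunit of complex A, was not in the filtered fit as labelled or with the labelled array counted as R6/1. It passed the filter with that array left out. It read 5.47, 5.34 and 5.38 in WT replicates 1 to 3, 5.38 in the array labelled WT replicate 4, and 5.68, 5.85 and 5.51 in R6/1. Here the array labelled WT replicate 4 lay with the WT arrays, and the groups did not overlap as labelled. The difference was 0.29 (standard error 0.11, limma adjusted p = 1.0 without the variance filter), 0.29 with the array left out and 0.21 with it counted as R6/1. Cc2d2a, a scaffold of the transition zone also outside the filtered fit, read 6.36, 6.18 and 5.88 in WT replicates 1 to 3, 6.32 in the array labelled WT replicate 4, and 6.11, 6.10 and 5.56 in R6/1, which overlapped. Its difference was -0.26 (standard error 0.15, limma adjusted p = 1.0 without the variance filter), -0.22 and -0.12 under the 3 groupings in the same order.

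As labelled, 1 of 34 genes was higher in R6/1 without overlap (Ift43), beside 1.46% of all genes, and 1 was lower (Bbs7), beside 1.68%. Leaving out the labelled array gave 4 higher (Ift22, Ift43, Ift57 and Tmem237), beside 2.84%, and 1 lower (Bbs7), beside 3.13%. With it counted as R6/1 they were 3 higher (Ift22, Ift57 and Tmem237), beside 1.71%, and 0 lower, beside 2.02%. Ift57 read 5.72, 5.47 and 5.21 in WT replicates 1 to 3 and 5.77, 5.75 and 5.72 in R6/1. Its groups were thus apart by less than the digits given. All 8 Bbs genes had a difference below 0 as labelled, with a median of -0.18 and a range of -0.41 to -0.03, whereas 52.2% of all genes were above 0. Leaving out the labelled array, 1 of 8 was above 0 (median -0.17), and with it counted as R6/1 3 of 8 (median -0.10), beside 53.5% and 53.6% of all genes. The Ift median was 0.04, 0.11 and 0.18 and the transition zone median -0.01, 0.07 and 0.09 under the 3 groupings, beside 0.01 for all genes in each. The sign of the transition zone median thus turned with the grouping.

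Array means of each class overlapped between R6/1 and WT at 6 months. The 8 Bbs genes averaged 5.81, 5.79 and 5.36 in WT replicates 1 to 3, 5.73 in the array labelled WT replicate 4, and 5.43, 5.61 and 5.38 in R6/1. WT replicate 3 was the lowest array at that age, and it was the lowest of the 15 arrays for 12 of the 34 genes. It and R6/1 replicate 3, the lower R6/1 array in each class, were the arrays with the narrowest spread of values. At 9 weeks the 14 Ift genes averaged 4.89 to 5.03 in WT and 5.09 to 5.19 in R6/2, which did not overlap. The Bbs means overlapped, at 5.01 to 5.46 in WT and 5.25 to 5.54 in R6/2, and so did the transition zone means, at 4.44 to 4.82 in WT and 4.81 to 4.93 in R6/2. At 6 months the rod list was 8.50 to 8.64 in WT replicates 1 to 3, 8.19 in the array labelled WT replicate 4 and 7.89 to 8.14 in R6/1, and the cone list 5.04 to 5.41, 3.95 and 3.70 to 3.79. The muscle list was 7.22 to 7.76, 5.49 and 5.81 to 6.85 in the same order. Their part in the values of the ciliary genes was not tested.

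**Figure D3:**
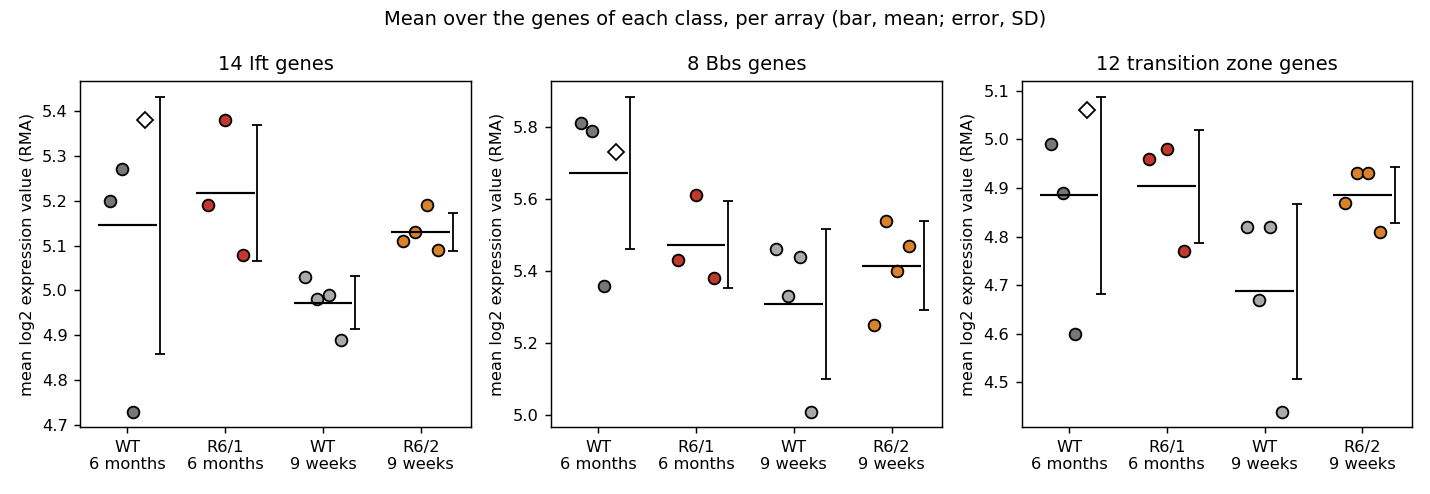
Mean log2 expression value over the genes of each class in each array, for 14 Ift, 8 Bbs and 12 transition zone genes, by group. Points are arrays, horizontal bars group means as labelled, error bars SD, and an open diamond marks the WT replicate 4 label at 6 months. The lowest WT point at 6 months is replicate 3 in each class, and the lowest WT point at 9 weeks is replicate 4.

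The difference in R6/1 minus that in R6/2 was tested in the same fit, and 0 of 22 genes were called, beside 0.0% of 11090 tested genes. Bbs7 differed by -0.49 (standard error 0.22, limma adjusted p = 1.0) as labelled, by -0.51 with the labelled array left out (adjusted p = 1.0) and by -0.41 with it counted as R6/1 (adjusted p = 0.995). Its unadjusted p was under 0.05 in the first 2 of these groupings and not in the last. Of all tested genes, 302 (2.72%) had such a p as labelled. For Tmem237 the difference between the models was -0.29 (normal interval from -0.78 to 0.21) as labelled, -0.12 (-0.56 to 0.32) with the array left out and -0.09 (-0.50 to 0.32) with it counted as R6/1. For Ift22 it was -0.37 (-0.91 to 0.17), -0.23 (-0.75 to 0.29) and -0.22 (-0.70 to 0.27) in the same order. These intervals do not show that the models acted alike.

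In the comparison of the WT groups, 6 months against 9 weeks, Bbs7 and Bbs4 had the lowest p of the ciliary genes. As labelled, 11 of 22 tested genes were called higher and 0 lower, beside 7.74% of tested genes called higher and 11.5% called lower. With the labelled array left out, 5 were called higher (Bbs7, Bbs4, Cep290, Ift57 and Tmem237), beside 3.99%, and 0 lower, beside 8.74%. With it counted as R6/1 there were 6, the same 5 and Bbs9, beside 4.7%, and 0 lower, beside 10.0%. Each age is a cohort of its own, so age and cohort cannot be told apart, and these arrays are also the controls of both comparisons above.

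In the BBSome, Bbs7 read 5.89, 6.14, 6.03 and 5.74 at 9 weeks and 7.02, 6.76, 6.51 and 6.70 at 6 months, where the last value is the array labelled WT replicate 4. All arrays at 6 months lay above all at 9 weeks. The log2 difference was 0.80 (standard error 0.15), or 1.74-fold, with limma adjusted p = 0.0129, and 0.82 with that array left out (adjusted p = 0.0314). Bbs4 had the largest difference of the 34 genes. It read 6.21, 5.86, 6.12 and 5.45 at 9 weeks and 6.71, 6.96, 6.46 and 6.96 at 6 months, again without overlap. The difference was 0.86 (standard error 0.17), or 1.82-fold, with adjusted p = 0.0186, and 0.80 with the array left out (adjusted p = 0.0542). Bbs9 read 6.87, 6.58, 6.81 and 6.26 at 9 weeks and 7.18, 7.05, 6.87 and 7.22 at 6 months, and the lowest array at 6 months met the highest at 9 weeks. The difference was 0.45 (standard error 0.15, limma adjusted p = 0.108), and 0.40 with the array left out (adjusted p = 0.209) or counted as R6/1 (adjusted p = 0.194).

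In the transition zone, Cep290, a scaffold that links the ciliary membrane to its microtubules, read 6.63, 6.56, 6.73 and 6.17 at 9 weeks and 7.18, 7.10, 6.77 and 7.36 at 6 months. There was no overlap, though WT replicate 3 at 6 months lay close to the highest array at 9 weeks. The difference was 0.58 (standard error 0.15, limma adjusted p = 0.052), and 0.49 with the array left out (adjusted p = 0.126). Tmem237, with the values given above, differed by 0.60 (standard error 0.17, adjusted p = 0.071) without overlap, and by 0.44 with the array left out (adjusted p = 0.162). Ahi1 read 7.24, 7.0, 6.40 and 7.19 at 6 months, and WT replicate 3 fell within the 9 week range. Tmem67 read 5.90, 5.80, 5.08 and 5.95, again with WT replicate 3 within that range. The differences of 0.54 for Ahi1 and 0.53 for Tmem67 were called as labelled (limma adjusted p = 0.124 and 0.144) and not under the other groupings.

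Among the Ift genes, Ift57 of complex B read 4.81, 4.90, 5.33 and 4.72 at 9 weeks and 5.72, 5.47, 5.21 and 5.85 at 6 months. WT replicate 3 at 9 weeks and at 6 months overlapped. The difference was 0.62 (standard error 0.18, limma adjusted p = 0.0699), and 0.52 with the array left out (adjusted p = 0.157). Ift80, Ift88 and Ift74, all of complex B, differed by 0.44, 0.37 and 0.36 as labelled (limma adjusted p = 0.122, 0.171 and 0.155). The WT groups overlapped in each. Ift80 and Ift74 were not called under the other groupings. Ift88 was not called with the labelled array counted as R6/1. With that array left out, Ift88 was outside the filtered fit and was not tested. Ift80 read 5.35, 5.13, 5.14 and 4.66 at 9 weeks and 5.54, 5.63, 5.15 and 5.71 at 6 months. Ift88 read 4.96, 4.55, 5.04 and 4.80 at 9 weeks and 5.06, 5.42, 4.95 and 5.39 at 6 months. In both, WT replicate 3 at 6 months fell within the 9 week range. Ift74 read 4.65, 4.46, 4.29 and 4.75 at 6 months, where WT replicate 3 lay below the highest array at 9 weeks. Ift20, which also works at the Golgi, ran the other way, at 7.39 to 7.44 at 9 weeks and 6.80 to 7.38 at 6 months. Its difference was -0.20 (standard error 0.12, limma adjusted p = 0.45 without the variance filter). Ift46 of complex B was lower too, at -0.24 (standard error 0.22, limma adjusted p = 0.568), and at -0.37 with the array left out. As labelled, 28 of 34 genes had a difference above 0, beside 49.7% of all genes. The others of the 34 were Ift20, Ift46, Tctn3, Mks1, Nphp4 and B9d1.

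Without overlap between the WT groups, 5 of 34 genes were higher at 6 months (Ift43, Bbs4, Bbs7, Tmem237 and Cep290), beside 2.32% of all genes, and 1 was lower (Ift20), beside 3.64%. With the labelled array left out, the same 5 were higher, beside 3.6%, and Ift20 was lower, beside 5.12%. Class medians were 0.18 for Ift, 0.26 for Bbs and 0.08 for the transition zone, and 0.09, 0.26 and 0.03 with the array left out, beside 0 for all genes. The pigment epithelium list was 6.51 to 6.80 at 6 months and 5.93 to 6.52 at 9 weeks, with 4 of 7 tested genes called higher, and the gland and adipocyte list was 4.34 to 4.76 and 4.57 to 6.76, with 4 of 6 called lower. The lens list was 7.94 to 8.19 and 8.23 to 8.91, with 4 of 10 called lower. The part of these markers in the ciliary values was not tested. Without WT replicate 4 at 9 weeks, 5 ciliary genes were called higher, beside 3.05% of all tested genes. The number was also 5 without WT replicate 2 at 9 weeks, beside 2.54%. It was 7 without WT replicate 1 at 6 months, beside 3.86%, and 6 without WT replicate 2 at 6 months, beside 3.26%. Without WT replicate 3 at 6 months it rose to 14, beside 16.2%.

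**Figure D4:**
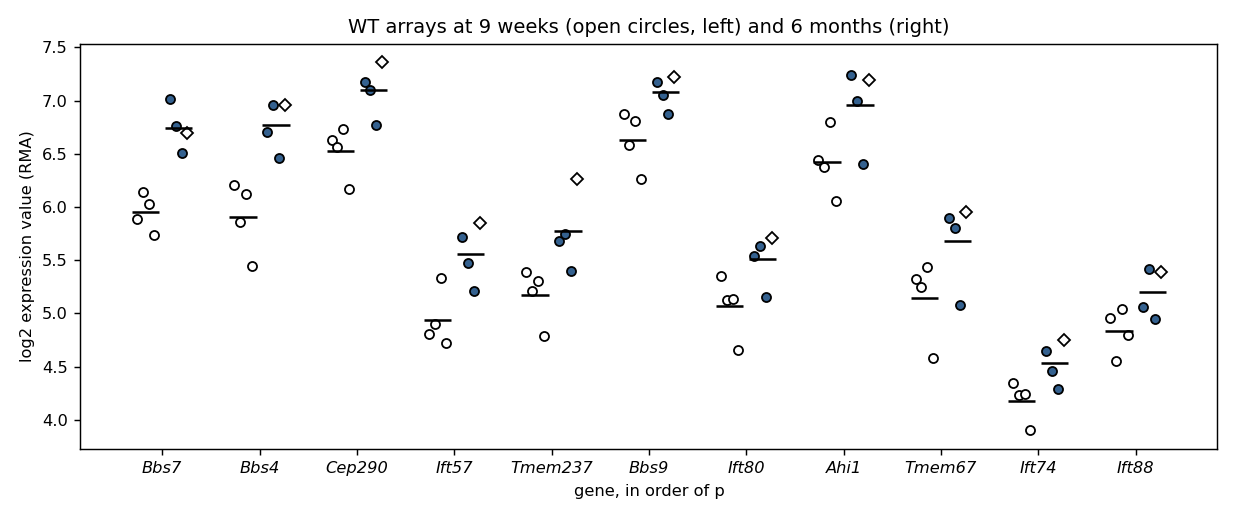
Log2 expression values of the 11 genes called higher in WT eyes at 6 months, in order of p. Open circles are the 4 WT arrays at 9 weeks, filled circles WT replicates 1 to 3 at 6 months, open diamonds the WT replicate 4 label at that age, and bars the group means as labelled. Bbs7, Bbs4, Cep290 and Tmem237 show no overlap between the ages, and the other 7 do or touch.

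Of the 14 Ift genes, those not called in any comparison and not given above by array were Ift27, Ift46, Ift52, Ift81, Ift122, Ift140 and Ift172. Of the Bbs genes these were Bbs2, Bbs5 and Bbs12, and of the transition zone Tctn2, Tctn3, Mks1, Rpgrip1l, Nphp4, B9d1 and B9d2. Ift27, a small GTPase of complex B, scattered widely in WT at 6 months, at 3.99, 4.41 and 3.35 in replicates 1 to 3, with the array labelled WT replicate 4 at 4.40. B9d2 stood at 2.64 to 3.02 and Nphp4 at 2.93 to 3.40 over all arrays, close to the array medians. The files give no background level, so whether such genes were detected was not tested.

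Other genes of the cilium, grouped in lists by function, gave no call in R6/1 or in R6/2 under any of the 3 groupings. These lists held 11 measured genes of other IFT subunits (8 tested as labelled), 3 of other BBS genes (1 tested), 10 of other transition zone genes (6 tested), 10 of IFT motors (4 tested), 17 of the photoreceptor cilium (12 tested), 17 of motile cilia (6 tested), 6 RFX factors (1 tested), 9 of the basal body (7 tested) and 8 of the hedgehog pathway (6 tested). The lowest p in R6/2 belonged to Dnah9, a dynein heavy chain of motile cilia, which read 3.58, 3.15, 3.45 and 3.16 in WT and 2.81, 2.84, 2.82 and 2.87 in R6/2. All R6/2 arrays were lower, and they lay within the range of the array medians (2.78 to 2.95). Whether Dnah9 was detected was not tested. The difference was -0.50 (standard error 0.14, limma adjusted p = 0.325). Rp2, a GTPase-activating protein for Arl3 in the traffic of lipidated proteins to the outer segment, read 3.68, 3.87, 3.78 and 3.66 in WT and 4.10, 4.14, 4.14 and 4.14 in R6/2. All R6/2 arrays were higher, at a difference of 0.38 (standard error 0.13, limma adjusted p = 0.381).

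Wdr35, of complex A, differed by 0.47 in R6/2 (standard error 0.19, limma adjusted p = 0.409), Kif3a, a motor of outward transport, by 0.30 (standard error 0.11, adjusted p = 0.535 without the variance filter), and Rfx3, a factor of ciliary genes, by 0.43 (standard error 0.20, adjusted p = 0.482). In R6/1 the lowest p values were those of Unc119, a carrier of lipidated transducin, at -0.48 (standard error 0.18, limma adjusted p = 1.0), and of Rp1, a microtubule protein of the outer segment, at -0.38 (standard error 0.15, adjusted p = 1.0). Without the labelled array these were -0.54 and -0.44, and with it counted as R6/1 they were -0.46 and -0.39. Rp1 read 7.48, 7.55 and 7.51 in WT replicates 1 to 3, 7.26 in the array labelled WT replicate 4, and 7.04, 7.12 and 7.07 in R6/1. The array labelled WT replicate 4 lay between the groups.

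Between the WT groups, 14 of the 51 tested genes of these lists were called higher at 6 months and 2 lower as labelled, beside 7.74% and 11.5% of all tested genes. The highest counts were 5 of 12 tested genes of the photoreceptor cilium (Rp2, Lca5, Rp1, Pde6d and Adgrv1) and 3 of 8 other IFT genes (Wdr35, Ttc21b and Hspb11). Among them Wdr35 had a difference of 0.67 (standard error 0.19, limma adjusted p = 0.0656) and Rp2 of 0.53 (standard error 0.13, adjusted p = 0.0426). The genes called lower were Dynlrb1, a dynein light chain, and Dnah9. Their differences were -0.39 (standard error 0.13, limma adjusted p = 0.114) and -0.37 (standard error 0.14, adjusted p = 0.139). Hspb11 read 2.13 to 2.83 over all arrays and Dnah9 2.77 to 3.13 in WT at 6 months, close to or below the array medians. Whether these genes were detected was not tested. With the labelled array left out, 6 of 50 were called higher (Wdr35, Hspb11, Kif3b, Rp1, Rp2 and Lca5) and 1 lower (Dynlrb1), beside 3.99% and 8.74%.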

How the data were processed

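Total RNA of mouse eyeballs was read on 15 Affymetrix Mouse Gene 2.1 ST arrays, and the deposited table holds log2 expression values that the authors made with the Robust Multiarray Average (RMA) of the affy library. RMA corrects background and makes arrays alike in distribution, so a shift common to most genes would not show, and the table gives neither background nor detection levels. Of 41345 probe sets, 23521 carried 1 gene symbol in GEO's platform annotation, 1820 several and 16004 none. Probe sets with 1 symbol gave 22180 genes, and for the 1082 genes with more than 1 the brightest probe set on average was taken.

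Groups followed the labels. A single limma model of 4 group means was fitted (R 4.3.3, limma 3.58.1) to the 50% of genes with the highest interquartile range (11090), with p-values adjusted by Benjamini-Hochberg over them. Calls required a p under 0.05 together with an adjusted p under 0.20, and values of genes outside the filter come from a fit of all genes. The fit was tested on simulated data. Tables and plots used Python 3.11.15, numpy 2.4.6, pandas 2.3.3 and matplotlib 3.10.9.

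The ciliary genes, the other lists and the tests were chosen with earlier results of these data known. Values per array are given for genes called in any comparison under any grouping and for the 2 of each class with the lowest p in each HD model. Of the other lists, up to 2 genes per list with the lowest p could be named. Alternatives covered the filter, threshold, arrays fitted, probe set, normalization, array weights, replicate block and single arrays left out. The qPCR of the study and genome positions of probes were not analysed here.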

Additional observations from a re-analysis of the deposited data

Results flagged for a closer look

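In 111 groups of 4 arrays, each ciliary gene or class mean was searched for an array far from the others, and 7 such arrays were found. Chance gives about 1 in 20 groups, so 7 in 111 lies near the chance rate. The groups are not independent, since Bbs5 and Bbs12 are part of the Bbs mean. WT replicate 3 at 6 months accounted for 5 of the 7. It read 6.80 for Ift20 (others 7.31 to 7.38), 5.35 for Bbs5 (others 6.15 to 6.26), 4.15 for Bbs12 (others 4.53 to 4.58) and 4.14 for Rpgrip1l (others 4.90 to 5.05). Its mean over the Bbs genes was 5.36 (others 5.73 to 5.81). This array also had the narrowest interquartile range, 2.17, and the part of that in these values was not tested. In R6/2, replicate 4 read 5.41 for Ift80 where the others read 5.35, and replicate 1 read 3.56 for Ift122 where the others read 3.8.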

How the results depend on the processing

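For R6/1 against WT, 0 ciliary genes were called higher as labelled and 0 whichever array was left out, and 1 (Tmem237, beside 0.325% of tested genes called higher) was called with the array labelled WT replicate 4 counted as R6/1 and the array interquartile range as a covariate. For R6/2 against WT, 0 were called higher as labelled and 0 to 3 on leaving out single arrays, beside 0.00902% to 2.25% of tested genes called higher in those fits. With the share of all tested genes called higher in brackets, the number was 2 with the labelled array counted as R6/1 (0.243%; 2 and 0.104% without the variance filter), 1 with it left out and no variance filter (0.0812%), 2 with only the arrays compared (0.271%), 2 after a further quantile normalization (0.352%) and 2 with the replicate block (2.07%). It was 3 with the interquartile range as a covariate (3.0%; 3 and 3.9% with the labelled array counted as R6/1), 9 with array weights (8.9%), 7 without the 3 arrays of narrowest spread (8.64%) and 6 without those and the labelled array (8.83%). It stayed at 0 without the variance filter (0.0316%), after centring on array medians (0.0631%) and with dim genes left out (0.213%). It was also 0 with the probe set of highest interquartile range (0.117%) and with limma's trend and robust options (0.0992%). At an adjusted p under 0.05 it was 0 (0.0%), and without WT replicates 2 and 4 at 9 weeks it was 0 (0.018%). For WT at 6 months against 9 weeks, 11 were called higher as labelled (7.74%). Leaving out single arrays gave 5 to 14 (2.54% to 16.2%). The number was 6 with the labelled array counted as R6/1 (4.7%; 5 and 2.18% without the variance filter), 5 with it left out and no filter (1.83%), 6 after centring on array medians (3.85%), 2 at an adjusted p under 0.05 (0.902%), 2 with only the arrays compared (0.766%) and 2 without WT replicates 2 and 4 at 9 weeks (0.803%). The number was 13 after a further quantile normalization (14%) and 13 with array weights (17%). With the interquartile range as a covariate it was 14 (16%), and 12 with the labelled array also counted as R6/1 (14%). It was 16 without the 3 arrays of narrowest spread (18%) and 11 without those and the labelled array (15%). It stayed at 11 without the variance filter (4%) and with dim genes left out (13%). With limma's trend and robust options it was 10 (7%). The cause of these shifts was not tested. The fits combining a grouping with another choice, those without the arrays of narrowest spread and that without WT replicates 2 and 4 were chosen after seeing the data. The labels name no pairing by replicate number. Deviations of same-numbered arrays correlated at 0.406, 0.337 and 0.749 at 6 months and at 0.107, -0.294, -0.224 and 0.261 at 9 weeks. The value of 0.749 joined WT and R6/1 replicate 3, the arrays of narrowest spread. Differently numbered arrays gave -0.553 to 0.309 at 6 months and -0.293 to 0.351 at 9 weeks. Same-numbered pairs thus did not stand out at 9 weeks. With the replicate block, R6/1 gave 0 calls and the difference between the models 0. The block could not be fitted between the ages, since replicate numbers lie within an age. The sign of the Ift and transition zone medians in R6/1 turned on leaving out single arrays (-0.10 to 0.11 and -0.05 to 0.07), and that of the Bbs median did not (-0.28 to -0.10). No signal over background was given, which limits what can be said of dim genes.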
